A study of Mus musculus with 14 samples.

Results

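The let-7 and miR-98 guide strands were followed in small extracellular vesicles, membrane particles shed by cells, that were collected from primary mouse neutrophils. The members were the 10 mature mouse miRNAs listed as mmu-let-7a-5p, mmu-let-7b-5p, mmu-let-7c-5p, mmu-let-7d-5p, mmu-let-7e-5p, mmu-let-7f-5p, mmu-let-7g-5p, mmu-let-7i-5p, mmu-let-7j and mmu-miR-98-5p, named without the species prefix from here on, out of 1695 mature miRNA names in the deposited table. They were chosen by name, and all 10 passed the filter on low counts, as did 239 names in all. The neutrophils were Ly6G+ bone marrow cells of wild-type female BALB/c mice, whose age is not given in the sources used here. They were treated for 48 h with the solvent DMSO or with 10 µM 27-hydroxycholesterol (27HC), a cholesterol metabolite, and each group held 7 libraries. The labels do not say whether the libraries came from separate mice or cultures, so p-values measure only the spread between these libraries, which may be technical.

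A microRNA guides the silencing machinery to messenger RNAs mainly through its seed, bases 2 to 8 counted from its 5′ end, and miRNAs that share a seed share most of their targets. The let-7 family rises as cells differentiate, represses growth and stemness genes such as Ras genes, Hmga2 and Myc, and is itself held back in stem cells by LIN28 proteins, which block maturation of let-7 precursors. Each hairpin can give a strand from its 5′ arm (5p), which is the usual guide of let-7, and a strand from its 3′ arm (3p), the usual passenger.

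The mature sequences below are shown because the members differ from each other in only a few bases, and most of them not at all in the seed. They were taken from RefSeq (mouse build GRCm38.p6), where all 10 members were matched by name. They are written 5′ to 3′, with the seed in capitals.
let-7a-5p: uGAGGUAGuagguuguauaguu
let-7b-5p: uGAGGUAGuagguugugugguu
let-7c-5p: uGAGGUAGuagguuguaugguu
let-7d-5p: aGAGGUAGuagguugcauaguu
let-7e-5p: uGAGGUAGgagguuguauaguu
let-7f-5p: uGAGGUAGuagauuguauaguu
let-7g-5p: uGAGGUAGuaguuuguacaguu
let-7i-5p: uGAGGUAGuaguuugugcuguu
let-7j: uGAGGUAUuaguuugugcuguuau
miR-98-5p: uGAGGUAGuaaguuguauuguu

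All members but let-7j carried the same seed. let-7j differed in the last seed base (G8U, counted from the 5′ end against let-7a-5p or let-7i-5p), and G8U was its only difference from let-7i-5p over the 22 bases of the latter, to which it adds 2 bases at the 3′ end. Outside the seed, let-7f-5p differed from let-7a-5p by G12A alone, let-7c-5p by A19G alone and let-7e-5p by U9G alone. let-7b-5p differed from let-7a-5p by A17G and A19G, let-7d-5p by U1A and U16C, let-7g-5p by G12U and U18C, and miR-98-5p by G11A and A19U.

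let-7a-5p, let-7c-5p and let-7f-5p are each encoded by 2 hairpins in RefSeq, so that their counts cannot be assigned to a locus, and the other 7 members by 1 each. The hairpin of let-7j, listed as Mir7j, is the only one that the GENCODE M21 annotation (also GRCm38) placed in no other gene, on chromosome 3 at 140028249 to 140028370. Positions belong to that annotation, since the deposited table holds none and the submitters' processing notes name GRCm39. On chromosome 13, Mirlet7d (48536012 to 48536114), Mirlet7f-1 (48537829 to 48537917) and Mirlet7a-1 (48538179 to 48538272) lie side by side in exons of the long non-coding RNA gene 6720427I07Rik. On chromosome 15, Mirlet7c-2 (85706603 to 85706697) and Mirlet7b (85707319 to 85707403) lie in exons of the non-coding gene Lncppara. On chromosome X, Mirlet7f-2 (151912346 to 151912428) and Mir98 (151913214 to 151913321) lie in an intron of Huwe1, a ubiquitin ligase gene.

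The other hairpins lie apart from members. Mirlet7c-1, on chromosome 16 at 77599657 to 77599750, shares an intron of Mir99ahg with Mir99a, opposite an intron of Gm11146. Mirlet7a-2, on chromosome 9 at 41536716 to 41536811, lies in introns of the non-coding genes 3110039I08Rik and Gm49317 between Mir100 and Mir125b-1. Mirlet7e, on chromosome 17 at 17830352 to 17830444, lies in an intron of Spaca6 next to Mir125a. Mirlet7g lies in an intron of Wdr82 on chromosome 9 at 106178840 to 106178927, and Mirlet7i in an exon of the pseudogene D630033A02Rik on chromosome 10 at 122985640 to 122985724.

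Library totals ran from 112914 to 871189 counts, and a count of 0 in the shallowest library allowed a level of up to 26.6 CPM (counts per 1000000 counts of the library), taking 3 counts as the limit. The neutrophil origin was checked by miR-223-3p, the signature miRNA of these cells. In CPM scaled by TMM, it stood at 142783 ± 40459 (SD, n = 7) with DMSO and 119314 ± 11586 with 27HC. Of the 4 names listed as neutrophil and myeloid, all tested, 2 were called lower with 27HC, beside 8.79% of all tested names. These were miR-142a-3p at −1.53 and miR-142a-5p at −0.74 on the log2 scale (edgeR adjusted p 3.55e-05 and 0.0223), in the direction of the called let-7 members. The miR-142 locus is pan-haematopoietic, that is active across blood cell types, and does not mark neutrophils alone. The neutrophil strands miR-223-3p at −0.26 and miR-223-5p at 0.17 were not called (edgeR adjusted p 0.406 and 0.388). The list summed to 83291 to 216664 CPM in DMSO and 113054 to 149157 CPM in 27HC libraries. Of the other lists, the summed level of 2 liver and serum miRNAs, miR-122-5p and miR-192-5p, ran from 2739 to 4698 CPM in DMSO and from 1973 to 3880.1 CPM in 27HC libraries. The 4 erythroid miRNAs summed to 505 to 1062 and 729.5 to 1126 CPM, the 3 lymphoid ones to 1765 to 2131 and 1454 to 2287 CPM, and the 5 stromal and endothelial ones to 1002 to 2205 and 965 to 2301 CPM. Among the lymphoid names, miR-150-5p was called lower, from 254 to 130 CPM on average (log2 fold change −0.97, edgeR adjusted p 0.0134). The part of these markers in the let-7 values was not tested. No listed marker was at 0 in all libraries. CPM values are relative to the other counts of a library and give no amount per cell or vesicle. In vesicle RNA from bulk culture, a changed mix of releasing cells or vesicles and less of a miRNA in each cannot be told apart.

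The family made up a small and variable part of the vesicle miRNA. Its 10 members together took 2.76 ± 0.649% of the counts in DMSO and 2.34 ± 0.420% in 27HC libraries (SD, n = 7). The lowest, median and highest DMSO library held 2.11%, 2.76% and 3.67%, and the 27HC libraries 1.94%, 2.22% and 2.95%. The groups overlapped, with 3 of the 7 27HC libraries under the lowest DMSO library and 3 of the 7 DMSO libraries over the highest 27HC library. The difference of −0.42 percentage points was smaller than the SD of the DMSO libraries, and no test was made on the sum, since the members were chosen with results known.

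Within the family, let-7i-5p had the highest level in counts and let-7e-5p the lowest. In DMSO libraries the mean levels, in CPM scaled by TMM, fell from 6591 for let-7i-5p over 4194 for let-7a-5p, 4193 for let-7j, 3599 for let-7c-5p and 3215 for let-7b-5p to 2087 for let-7f-5p, 1983 for let-7g-5p, 1036 for let-7d-5p, 171 for miR-98-5p and 44.6 for let-7e-5p. Mature miRNAs are of nearly equal length, 22 bases for all members but let-7j with 24, so the levels were not corrected for length. Whether all members were captured and counted equally well was not tested, so the order is one of counts. Counted within each library, let-7i-5p was above let-7a-5p in 7 of 7 DMSO libraries, while let-7a-5p was above let-7j in 3 of 7, let-7b-5p above let-7f-5p in 5 of 7 and let-7f-5p above let-7g-5p in 5 of 7. The neighbours let-7a-5p and let-7j, let-7j and let-7c-5p, let-7b-5p and let-7f-5p, and let-7f-5p and let-7g-5p therefore had no fixed order across libraries, and let-7c-5p stood above let-7b-5p in 6 of 7. With 27HC, let-7c-5p followed let-7i-5p at 3647 CPM, ahead of let-7b-5p at 3118, let-7j at 3101 and let-7a-5p at 3092 CPM. This order of means was not fixed across libraries, with let-7c-5p above let-7b-5p in 5 of 7, let-7b-5p above let-7j in 4 of 7 and let-7j above let-7a-5p in 4 of 7, and let-7g-5p stood above let-7f-5p in 6 of 7 libraries.

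**Figure D1:**
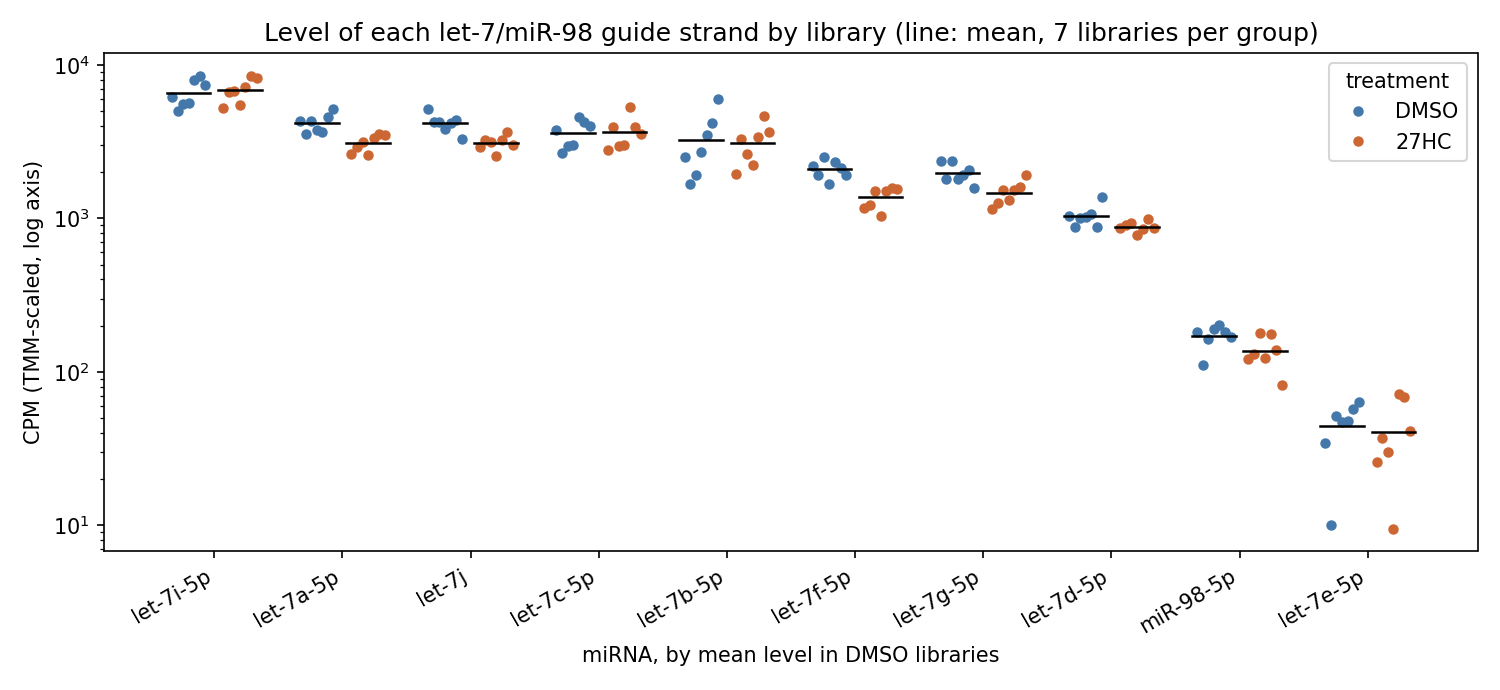
Level of each member in each library, in TMM-scaled CPM on a log axis, with DMSO libraries in blue, 27HC libraries in orange and a line at each group mean. For let-7f-5p the groups do not overlap, while those of let-7i-5p, let-7c-5p and let-7b-5p cover nearly the same range.

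The main comparison asked whether 27HC changed the level of each member relative to all counts. In edgeR's quasi-likelihood test over all 239 tested names, 4 of the 10 members were lower with 27HC at an adjusted p under 0.05 and 0 were higher. The background was 8.79% of the tested names called lower and 3.77% called higher. These 4 were let-7f-5p, let-7a-5p, let-7j and let-7g-5p. The median log2 fold change of the members was −0.28, beside 0.010 for all tested names, and 8 of the 10 had a fitted fold change under 0, as had 49.4% of all tested names.

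let-7f-5p, which differs from let-7a-5p by the single base given above, had the largest fitted fall among the members. Its lowest, median and highest levels were 1662, 2122 and 2509.8 CPM in DMSO libraries and 1037, 1502 and 1576 CPM in 27HC libraries. The highest 27HC library thus stayed below the lowest DMSO library, and let-7f-5p was the only member of the 10 without overlap, a pattern seen in 3.35% of the tested names in this direction and in 2.09% in the other, where 0 members showed it. This gave a log2 fold change of −0.61 (SE 0.12), a level 34.6% lower, and edgeR's adjusted p was 0.00204. The direction was lower in replicates 1 to 4 alone, at −0.68 (edgeR adjusted p 0.0103), and in replicates 5 to 7 alone, at −0.44, where it missed the threshold (edgeR adjusted p 0.149).

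let-7a-5p, the family's best studied member and a repressor of Ras transcripts, stood at 3557, 4284 and 5164 CPM (lowest, median and highest) in DMSO and at 2592, 3119 and 3565 CPM in 27HC libraries. The groups overlapped only through 27HC replicate 6, which stood just above the lowest DMSO library, replicate 2. The test gave a log2 fold change of −0.44 (SE 0.11) and an edgeR adjusted p of 0.00940. Without 27HC replicate 4, the lowest 27HC library, the fold change was −0.36 and the call was lost, with an edgeR adjusted p of 0.0511. In replicates 1 to 4 the fold change was −0.43 and in replicates 5 to 7 it was −0.36.

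let-7j, a name with its own hairpin and the altered seed base shown above, ran from 3296 over 4243 to 5190.5 CPM in DMSO and from 2545 over 3154 to 3634 CPM in 27HC libraries. As for let-7a-5p, the groups overlapped only through 27HC replicate 6, which passed the lowest DMSO library, here replicate 7. The test gave a log2 fold change of −0.44 (SE 0.10) and an edgeR adjusted p of 0.00906.

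let-7g-5p, another widely expressed repressor of Ras and Hmga2 transcripts, ran from 1569 over 1916 to 2368 CPM in DMSO and from 1143 over 1531 to 1903 CPM in 27HC libraries. Replicate 7 held both the lowest DMSO library and the highest 27HC library, and in the other 6 replicate numbers the DMSO library was the higher. The test gave −0.44 (SE 0.13) on the log2 scale and an edgeR adjusted p of 0.0279. This call was lost in 10 of the 14 fits without a single library: the edgeR adjusted p was 0.140 without DMSO replicate 1, 0.0862 without DMSO replicate 3, 0.0655 without DMSO replicate 4 and 0.0875 without DMSO replicate 5. It was 0.136, 0.109, 0.0567, 0.121, 0.101 and 0.0800 without 27HC replicates 1 to 6 in turn. The fold change was −0.60 in replicates 1 to 4 and −0.13 in replicates 5 to 7. The difference between these sets, tested as an interaction over all names, was 0.53 with an unadjusted p of 0.0254 and an edgeR adjusted p of 0.467, so that it missed the threshold. Of the 239 names, 24 had an unadjusted edgeR p under 0.05 in that test and 0 were called. For the other members the unadjusted edgeR p was 0.129 or more.

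The other 6 members were not called. let-7d-5p stood at 1036 ± 166 CPM (SD, n = 7) with DMSO against 883 ± 66.3 CPM with 27HC, with a log2 fold change of −0.23 (SE 0.11) and an edgeR adjusted p of 0.231. miR-98-5p, which is encoded beside let-7f-2 and shares its seed, stood at 171 ± 29.2 and 136 ± 33.9 CPM, with −0.33 (SE 0.20) and an edgeR adjusted p of 0.372. let-7e-5p rested on 3 to 38 counts per library, so that its value of −0.23 (SE 0.42) was imprecise. The remaining 3 lay close to 0: let-7b-5p at −0.046 (SE 0.26), let-7c-5p at 0.019 (SE 0.15) and let-7i-5p at 0.059 (SE 0.14), and the sign of each of them turned under some scalings, filters or covariates. In these 3 the groups overlapped almost fully, from 1671 to 6032 CPM in DMSO and 1956 to 4667 CPM in 27HC libraries for let-7b-5p, from 2683 to 4538 and 2801 to 5299 CPM for let-7c-5p, and from 4973 to 8436 and 5256 to 8499 CPM for let-7i-5p.

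**Figure D2:**
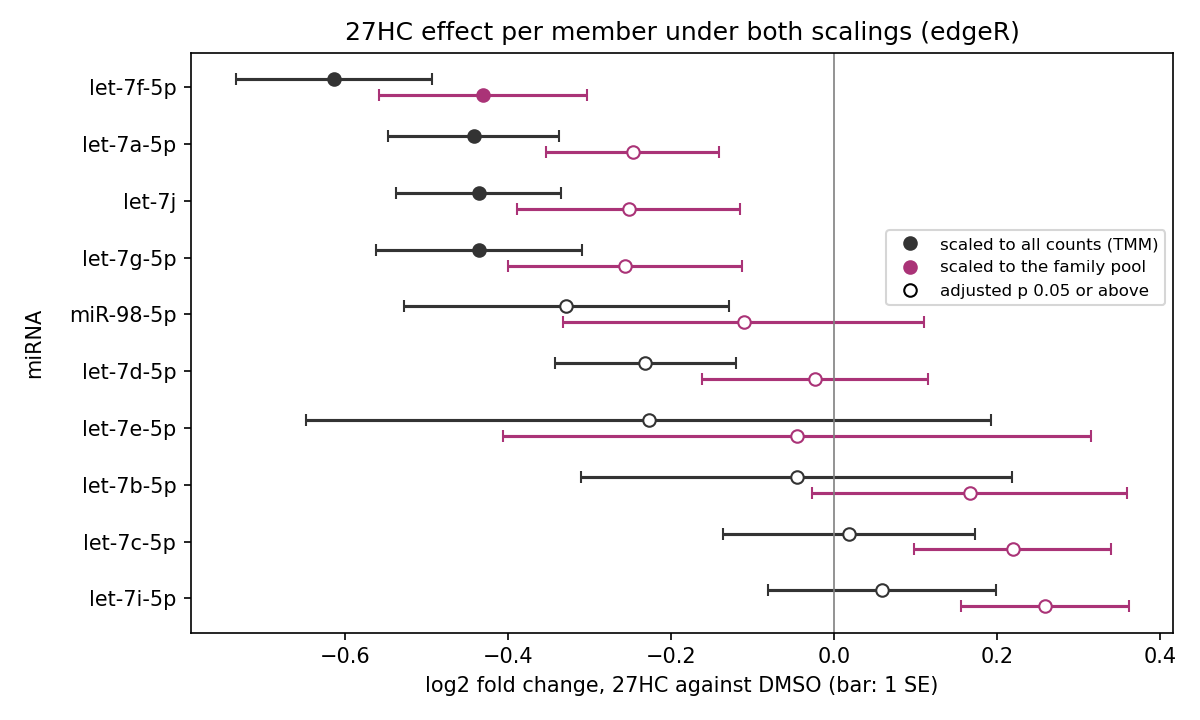
Log2 fold change of each member, 27HC against DMSO, with bars of 1 SE, scaled to all counts by TMM (dark) or to the summed counts of the 10 members (purple), where filled points passed an edgeR adjusted p of 0.05. Relative to all counts 4 members were called lower, and relative to the family only let-7f-5p was called.

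Because a fall of some members leaves a larger share to the others, the make-up of the family was compared directly. The same edgeR test was run over all 239 names with the summed counts of the 10 members as the library size, which asks whether a member's share of the family changed. On this scale 1 member was called lower and 0 higher, beside 3.35% and 4.6% of all tested names. The median log2 fold change of all names was 0.20 on this scale, so that a member at 0.20 moved with the median name.

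let-7f-5p was the member called. Its part of the family counts was 7.78 ± 1.29% in DMSO and 5.78 ± 0.479% in 27HC libraries (SD, n = 7), and 5 of the 7 27HC libraries lay under the lowest DMSO library. On the log2 scale the share changed by −0.43 (SE 0.13), and edgeR's adjusted p of 0.0468 was close to the threshold. Of the 14 fits without a single library, 11 missed the threshold. In those fits edgeR's adjusted p was 0.0972, 0.0865, 0.118, 0.0510 and 0.0677 without DMSO replicates 1 to 5 in turn, and 0.0919, 0.0527, 0.102, 0.0745, 0.0718 and 0.0678 without 27HC replicates 2 to 7 in turn.

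The largest share went the other way. let-7i-5p held 24.2 ± 2.12% of the family counts in DMSO and 28.9 ± 1.42% in 27HC libraries (SD, n = 7), and all 27HC libraries but replicate 5, at 27.04%, exceeded the highest DMSO library, at 27.1%. The log2 fold change of its share was 0.26 (SE 0.10), with an unadjusted p of 0.0225 and an edgeR adjusted p of 0.125, so that it was not called. With a term for replicates 1 to 4 against 5 to 7, chosen after seeing the data for this scale, let-7i-5p was called higher at 0.26 (edgeR adjusted p 0.0161), and let-7f-5p and let-7a-5p were called lower at −0.43 and −0.25 (edgeR adjusted p 0.00850 and 0.0334). There 6.69% of the tested names were called lower and 14.6% higher. Over all alternatives of the share comparison the adjusted p of let-7i-5p ran from 0.0161 to 0.534 and that of let-7f-5p from 0.00850 to 0.371.

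The shares of the other members were not called. In percentage points, those of let-7a-5p, let-7j and let-7c-5p differed at least as much between the groups as that of let-7f-5p. let-7a-5p went from 15.5 ± 1.60% to 13.1 ± 0.663% and let-7j from 15.7 ± 3.05% to 13.2 ± 1.31% (SD, n = 7), with edgeR adjusted p-values of 0.151 and 0.269 on this scale. let-7c-5p went from 13.2 ± 1.19% to 15.4 ± 2.41% and let-7b-5p from 11.5 ± 4.14% to 12.9 ± 1.98%, with edgeR adjusted p-values of 0.272 and 0.625. let-7g-5p held 7.43 ± 1.47% and 6.23 ± 0.723%, and let-7d-5p 3.85 ± 0.538% and 3.78 ± 0.499%.

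**Figure D3:**
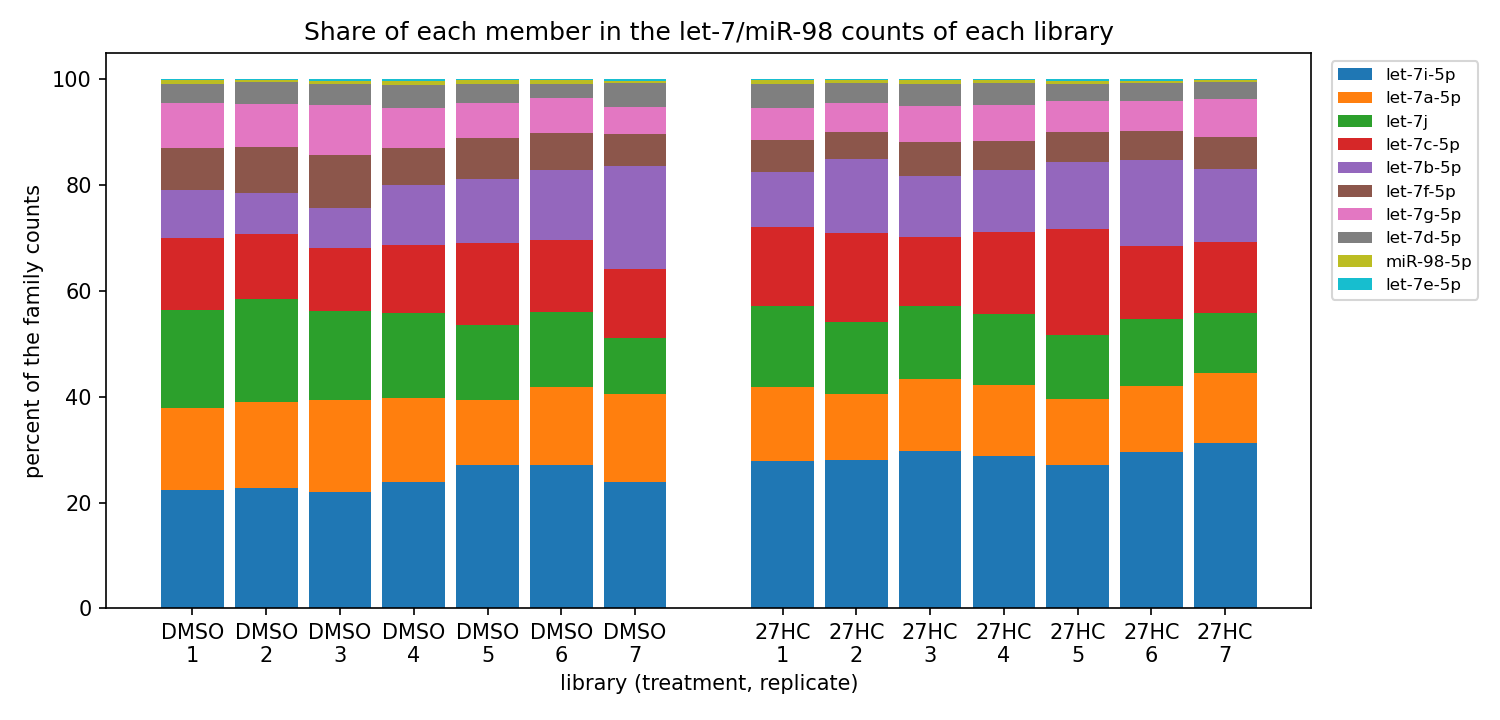
Share of each member in the family counts of each library, as stacked bars in percent that sum to 100, with DMSO libraries on the left and 27HC libraries on the right. The lowest segment, let-7i-5p, is wider in the 27HC libraries, at 28.9% on average against 24.2%, and the segment of let-7f-5p is narrower, at 5.78% against 7.78%.

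Read by genomic cluster, the fitted values on chromosome 13 were all under 0. let-7a-5p and let-7f-5p were called lower there, and their neighbour let-7d-5p, which has no other hairpin, was at −0.23 (SE 0.11) and not called. Differences between members of a cluster were not tested. Summed, these 3 names stood at 7317 ± 752 CPM (SD, n = 7) with DMSO against 5342 ± 643 CPM with 27HC, without overlap between the groups. Most of this sum was let-7a-5p and let-7f-5p, already called, so its separation is no separate result for the cluster. This sum is the most that the cluster could supply, since let-7a-5p and let-7f-5p have a second hairpin each. On chromosome X, let-7f-5p and miR-98-5p summed to 2258 ± 292 and 1503 ± 227 CPM, nearly all of it let-7f-5p. There too the groups did not overlap, as for let-7f-5p alone. On chromosome 15, let-7c-5p and let-7b-5p summed to 6814 ± 2073 and 6765 ± 1602 CPM, with nearly equal means in both groups. Sums were not tested.

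The miRNAs encoded beside let-7 hairpins were not called in the test over all names. Of the 11 strands of miR-99a, miR-99b, miR-100, miR-125a and miR-125b, 10 were listed, 4 passed the filter and 0 were called. Their unadjusted edgeR p-values were 0.370 or more. Of all tested names, 12.6% were called in either direction. miR-125b-5p, made beside let-7a-2 and elsewhere, stood at 1579 ± 278 CPM (SD, n = 7) with DMSO against 1699 ± 565 CPM with 27HC, with a log2 fold change of 0.11 (SE 0.19). miR-125a-5p, the neighbour of let-7e, gave −0.080 (SE 0.17), and miR-99a-5p, the neighbour of let-7c-1, gave −0.011 (SE 0.22).

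The 3p strands were counted to see which strand of each hairpin was the more abundant in these vesicles. Which strand was loaded into the silencing machinery was not measured. For most hairpins it was the 5p strand: let-7i-5p had 13880 counts in DMSO libraries against 62 for let-7i-3p, and let-7f-5p had 4811 against 9 for let-7f-1-3p and 2 for let-7f-2-3p. let-7d was the exception. let-7d-3p held 2425 counts in DMSO and 1758 in 27HC libraries, against 2332 and 1333 for let-7d-5p. It exceeded let-7d-5p in 4 of 7 DMSO and 6 of 7 27HC libraries. With DMSO these were replicates 1 to 4, while in replicates 5 to 7 let-7d-5p was the higher. With 27HC, let-7d-5p was higher only in replicate 6. Of all counts of the pair, the 3p strand took 49.1 ± 6.79% in DMSO and 55.5 ± 4.69% in 27HC libraries (SD, n = 7).

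let-7d-3p was not called. Its lowest, median and highest levels were 658, 1092 and 1309 CPM in DMSO and 927, 1069 and 1344 CPM in 27HC libraries, with a log2 fold change of 0.13 (SE 0.15) and an edgeR adjusted p of 0.688. The difference from the value of let-7d-5p was not tested. Its sequence is shown beside that of the 3p strand of let-7a-1, from the same chromosome 13 transcript, because sharing of whole sequences between 3p names bears on their counts. Bases 2 to 8 are in capitals.
let-7d-3p: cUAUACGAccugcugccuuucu
let-7a-1-3p: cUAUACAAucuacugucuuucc

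let-7a-1-3p has the same 22 bases as let-7c-2-3p, and both names had identical counts in all 14 libraries, 162 in DMSO and 70 in 27HC libraries. The other pair of names with equal sequence and at least 100 counts, miR-199a-3p and miR-199b-3p, also had identical counts. Their counts therefore do not tell the chromosome 13 hairpin from the chromosome 15 one. let-7a-1-3p stood at 62.6 ± 25.2 CPM with DMSO against 46.4 ± 15.4 CPM with 27HC, with a log2 fold change of −0.44 (SE 0.31) and an edgeR adjusted p of 0.448. Of the 14 passenger and related names, 12 were listed, 3 passed the filter, counting this shared pair as 2, and 0 were called. The share over all tested names was 12.6% in either direction.

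Sharing of reads between guide names was examined through their ratios, since names that count the same reads keep a fixed ratio. The log2 ratio of let-7a-5p to let-7j averaged −0.0032 and ran from −0.28 to 0.65 in DMSO and from −0.15 to 0.22 in 27HC libraries. Its SD over the 14 libraries was 0.23, where counting error alone would give 0.076. Both names thus had nearly equal levels on average but were not copies of each other. The steadiest pair was let-7f-5p and let-7g-5p, with an SD of 0.18 against 0.11 from counting, and let-7g-5p and let-7j followed with 0.19. let-7j and let-7i-5p, which differ by a single base besides the 3′ end, varied more, with an SD of 0.38, and let-7j was therefore closer in profile to members that it resembles less. Whether some let-7j counts came from reads of other members was not tested.

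Several members differed between replicates 1 to 4 and replicates 5 to 7 in both treatment groups. Replicates 1 to 4 had totals of 229324 to 871189 counts and replicates 5 to 7 of 112914 to 252014 counts, and the labels do not say what sets them apart. Pearson's r with the log2 library total was −0.81 for let-7i-5p, −0.73 for let-7c-5p and −0.65 for let-7b-5p. It was −0.33 for let-7e-5p, and from 0.029 (let-7a-5p) to 0.089 (let-7j) for the other members. The part of depth in these levels was not tested. Within DMSO libraries, 3 of the 10 members were higher in replicates 5 to 7 without overlap, and within 27HC libraries 5 were, beside 17.2% and 14.2% of all tested names. let-7b-5p stood at 2199 ± 483 CPM in DMSO replicates 1 to 4 and at 4569 ± 1308 CPM in DMSO replicates 5 to 7 (SD, n = 4 and n = 3), and at 2524 ± 579 and 3910.4 ± 668 CPM with 27HC. let-7i-5p stood at 5589 ± 509 and 7927 ± 515 CPM with DMSO and at 6033 ± 765 and 7975 ± 698 CPM with 27HC, without overlap between the sets in either group. let-7c-5p did not overlap between the sets in DMSO libraries, at 3107 ± 466 and 4256 ± 262 CPM.

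The members called lower with 27HC did not follow that pattern in DMSO libraries, where the sets overlapped for all 4. let-7f-5p stood at 2066 ± 365 CPM in DMSO replicates 1 to 4 and at 2115 ± 207 CPM in DMSO replicates 5 to 7. With 27HC, let-7f-5p and let-7a-5p were higher in replicates 5 to 7 without overlap, at 1544 ± 34.7 against 1234 ± 196 CPM for let-7f-5p. The liver miRNA miR-122-5p shifted in the same direction as let-7i-5p, let-7b-5p and let-7c-5p, from 2780 ± 331 to 3835 ± 710.2 CPM with DMSO and from 2779.6 ± 621 to 3436 ± 211 CPM with 27HC. Its part in the levels of these members was not tested, and its own log2 fold change with 27HC was −0.080 (edgeR adjusted p 0.840). In replicates 1 to 4 alone the 4 called members were all called lower again and 0 members higher, beside 10.7% and 6.61% of the names tested there. In replicates 5 to 7 alone 0 members were called in either direction, beside 3.54% lower and 2.53% higher. Within replicates 1 to 4, let-7f-5p and let-7g-5p also had a lower share of the family (edgeR adjusted p 0.0323 and 0.0473) and let-7i-5p a higher one (0.0419), beside 7.02% and 11.2% of the names. By share of the library, the family took 2.28 ± 0.316% and 2.02 ± 0.133% in DMSO and 27HC replicates 1 to 4 (SD, n = 4). In DMSO and 27HC replicates 5 to 7 it took 3.39 ± 0.239% and 2.77 ± 0.162% (SD, n = 3). These sums were not tested.

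**Figure D4:**
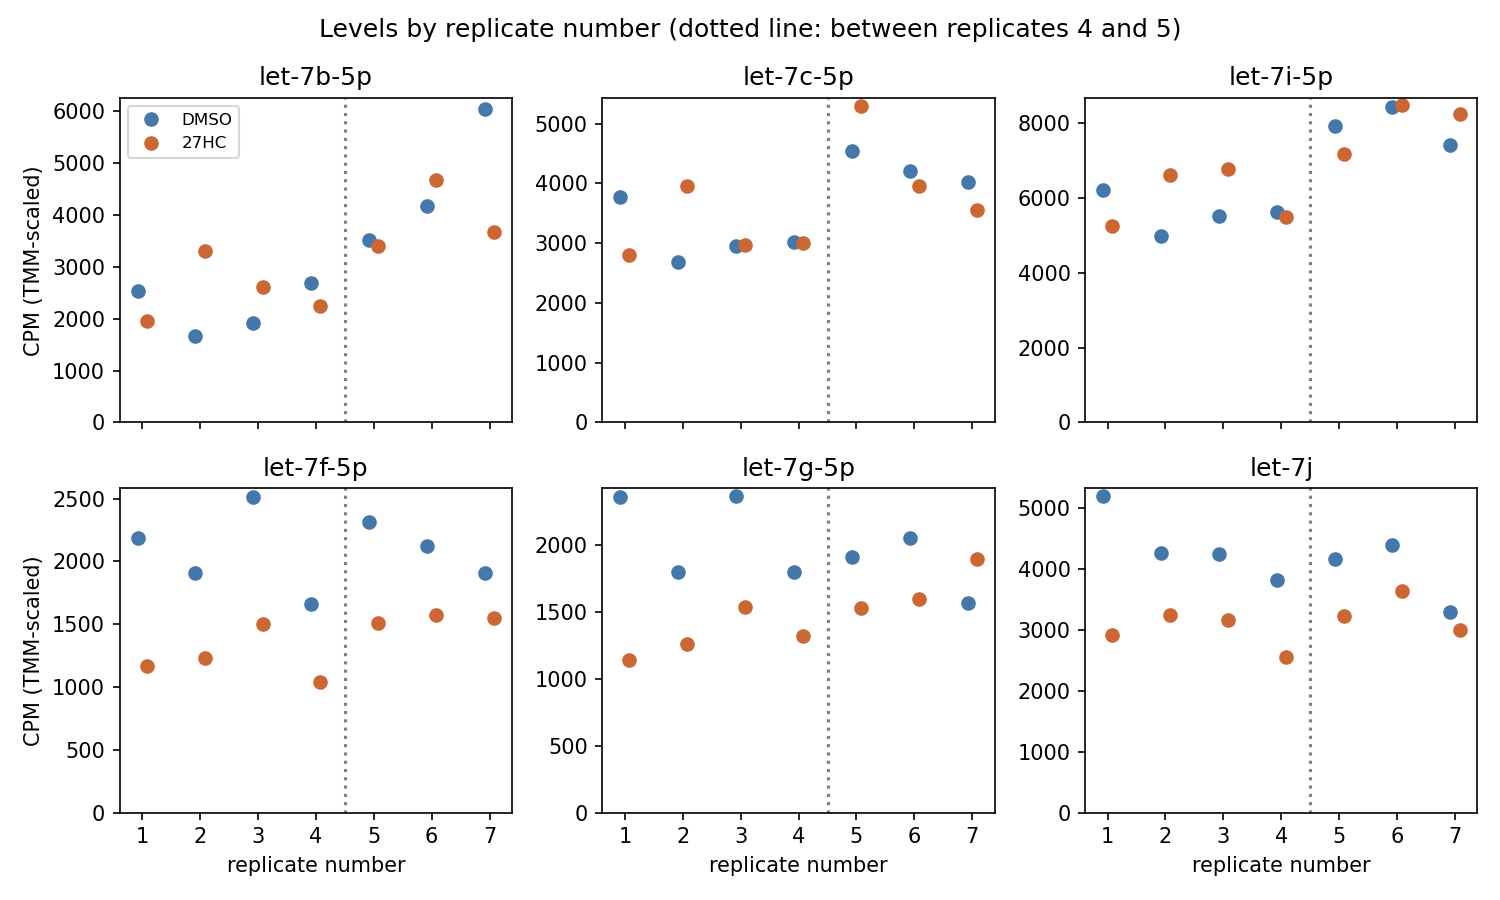
Level of 6 members in TMM-scaled CPM by replicate number, DMSO in blue and 27HC in orange, with a dotted line between replicates 4 and 5. let-7b-5p and let-7i-5p are higher in replicates 5 to 7 in both groups, while for let-7f-5p and let-7j the 27HC library lies under the DMSO library at every replicate number and for let-7g-5p at every number but 7.

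A feature of the sequences that the choice of members did not use is their base composition. The 4 members called lower had 31.8% (let-7f-5p), 33.3% (let-7j) and 36.4% (let-7a-5p and let-7g-5p) of G and C in the mature sequence. miR-98-5p also had 31.8% but was not called. let-7c-5p and let-7i-5p, near 0 in fold change, had 40.9%, as had let-7d-5p and let-7e-5p, both at −0.23, and let-7b-5p had 45.5%. Across the 10 members, Pearson's r between this percentage and the log2 fold change was 0.81 and Spearman's rho 0.79, given as a description, since the members share libraries and most of their sequence. Over the 191 other tested names with a RefSeq sequence, of 229, r was 0.22 and rho 0.25. The 21 names under 35% of G and C had a median log2 fold change of −0.20, and the 58 names with 55% or more a median of 0.18, both counts over all tested names with a sequence. The part of base composition in the fold changes was not tested.

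**Figure D5:**
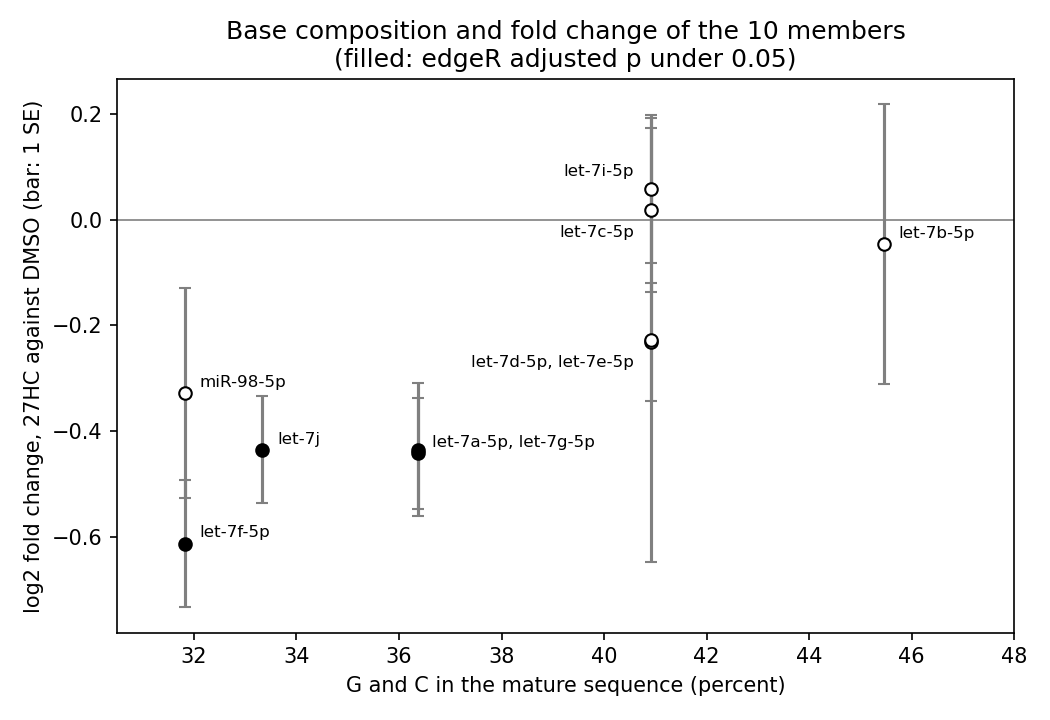
Percent of G and C in the mature sequence of each member against its log2 fold change, 27HC against DMSO, with bars of 1 SE, where filled points were called. The 4 called members lie at 31.8% to 36.4%, and all members from 40.9% upward were not called.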

How the data were processed

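Small RNA of vesicles from 14 libraries, 7 per group, was analysed. Per the labels' protocols, the RNA came from a Qiagen miRNeasy Micro extraction and the libraries from Qiagen's QIAseq miRNA kit. The authors deposited raw counts, whole numbers per mature miRNA name and library. The submitters' processing notes name R 4.1.2, edgeR, limma and GRCm39. The aligner, the rule for reads that match several names and the use of molecular identifiers are not given in the sources used here. A count may therefore be a read or a molecule. SDs and SEs cover the spread between these libraries. No column or library was left unmatched (0 of each).

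edgeR's filterByExpr removed names with few counts. 27HC was compared with DMSO in R 4.3.3 by the quasi-likelihood test of edgeR 4.0.16 (TMM scaling, treatment as the only term), with Benjamini-Hochberg adjustment over all 239 names and calls at an adjusted p under 0.05. CPM values use TMM-scaled library sizes. The share comparison replaced the library size by the summed counts of the 10 members. Both steps were tested on simulated data. Alternatives covered scaling, filter, tool (DESeq2 1.42.0, limma 3.58.1), covariates, the replicate block and each library left out. Samples were grouped by their titles. The members, lists and tests were chosen with earlier results of these data known. The members, and related strands that passed the filter, were named, with the 5 other names most like the family sum.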

Additional observations from a re-analysis of the deposited data

Results flagged for a closer look

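Among the 54 sets of 7 libraries examined over the members, their shares, the family sum and the related strands, 3 had an extreme library standing apart from its group, about as many as the 2.7 that chance gives at 1 in 20. The highest let-7d-5p value among DMSO libraries was 1371 CPM in replicate 7, with the next at 1066 CPM. Leaving that library out moved the log2 fold change of let-7d-5p from −0.23 to −0.087. The lowest miR-98-5p value among DMSO libraries was 111 CPM in replicate 2, with the next at 164 CPM. Leaving it out moved the log2 fold change of miR-98-5p from −0.33 to −0.43, not called in either fit (edgeR adjusted p 0.205 without it, and 0.167 to 0.642 over its alternatives). The highest miR-100-5p value among 27HC libraries was 224.7 CPM in replicate 1, from 95 counts, with the next at 50.6 CPM. miR-100 shares a cluster with let-7a-2. The other 27HC libraries held 1 to 16 counts of it, and its log2 fold change of 0.55 (SE 0.60) rested on that library.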

How the results depend on the processing

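Calls were compared over 29 alternatives. let-7f-5p was called lower in 27 and let-7a-5p in 26 of 29, let-7j in 26 of 28 and let-7g-5p in 15 of 29. let-7j was called in all 14 fits that left out a library (largest edgeR adjusted p 0.0431), as was let-7f-5p (0.0128). With no filter on low counts 0 members were called lower in place of 4, and the median log2 fold change of all names moved to −0.19. 0 were called in replicates 5 to 7 alone, where 12 names were called in all in place of 30. In another fit, let-7a-5p and let-7j were replaced by 1 name that took the larger of their counts in each library, not the sum. There 2 were called, this joint name and let-7f-5p, and let-7g-5p lost its call (edgeR adjusted p 0.0666). Leaving out single libraries gave 2 to 4 members. DESeq2 called 32 names and limma-voom 27, each with the same number of 4 members lower.

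Members near 0 changed sign. let-7c-5p was at −0.080 with upper-quartile scaling, −0.033 with library totals only, −0.052 with no filter and −0.12 with the library total as covariate, and let-7i-5p at −0.029, −0.0092 (no filter) and −0.077 (covariate). let-7b-5p was at 0.034 with a mean count of at least 100, 0.015 with a term for the replicate sets, 0.27 in replicates 1 to 4 and 0.023 with limma-voom. Leaving out single libraries gave −0.17 to 0.23 for let-7b-5p, −0.055 to 0.14 for let-7c-5p, −0.43 to 0.022 for let-7e-5p and −0.013 to 0.17 for let-7i-5p. On the share scale the ranges were −0.086 to 0.013 for let-7d-5p and −0.20 to 0.13 for let-7e-5p. The cause of these changes was not tested.

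In the share comparison 19 names, with 1 member lower and 0 higher, became 44 names with 2 lower and 1 higher in replicates 1 to 4, 10 names with 0 members lower in replicates 5 to 7, and 51 names with 2 lower and 1 higher with the set term, an alternative chosen after seeing the data. There let-7d-5p was at 0.044 in replicates 1 to 4, and let-7b-5p at −0.065 and let-7g-5p at 0.029 in replicates 5 to 7. Leaving out single libraries gave 13 to 23 names and 0 to 1 members lower.

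Same-numbered libraries deviated together with correlations of 0.069 to 0.60, with replicate 2 under 0.1. In replicates 3 and 6 both libraries correlated best with their own number, and in the other replicates not both did. The labels do not say whether the numbers pair the libraries, and these correlations cannot decide it. With the replicate block, 37 names and 4 members lower were called, let-7b-5p was at 0.024, and the share comparison called 43 names with 1 member lower. Depth limits let-7e-5p (3 to 38 counts per library), miR-98-5p and most 3p strands.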

Other observations

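By Pearson's r of log2 CPM with the log2 sum of the members over the 14 libraries, the names most like the family were miR-669b-3p (0.83), miR-1195 (0.82), miR-7058-3p (0.79), miR-3470a (0.79) and miR-122-5p (0.78). These values are a description. All libraries share the split by replicate number, and the names were not called (edgeR adjusted p from 0.406 to 0.890). miR-122-5p, a liver miRNA, was the only abundant name among them, with a mean of 3232 CPM in the DMSO group and 3061 CPM in the 27HC group.

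let-7k carries the let-7a seed and is not among the members. It had 5 counts in DMSO and 2 in 27HC libraries. The 3p strand of miR-98 had 17 and 19 counts, and that of let-7i 62 and 61.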
